A study of Saccharomyces cerevisiae with 18 samples.

Results

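The Ty genes of budding yeast are the reading frames of its long terminal repeat retrotransposons, and they were described here across 6 groups of libraries. They were taken from the deposited count table as the rows with a systematic name ending in a hyphen and a letter and a length of at least 1200 bp, together with 8 loci named one by one. These criteria gave 48 of 6837 rows. No measured level enters the criteria, but they were chosen with earlier results of these data known. The reference annotation calls 44 of the 48 rows Ty reading frames: 32 of Ty1 (30 Gag-Pol and 2 Gag), 9 of Ty2, 1 of Ty3 and 2 of Ty4, all Gag-Pol in the last 3 families. The other 4 rows, MEI4, NVJ3, LSB3 and FCY22, are ordinary genes with names of the same form. They are described apart, and "Ty genes" below means the 44.

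RNA-seq of polyadenylated RNA was carried out on BY4742, a haploid laboratory strain of mating type alpha, grown in rich medium and collected after 1 or 4 days in a study of chronological aging, which follows cells that no longer divide. Libraries came in triplicate from each of 6 groups: the wild type (WT), the SET2 deletion (set2Δ) and the BRE1 deletion (bre1Δ), all sampled at both days. The enzyme lost in set2Δ methylates lysine 36 of histone H3, and the one lost in bre1Δ attaches ubiquitin to histone H2B. All groups share the BY4742 background with no treatment, and neither the number of clones behind each deletion nor whether replicates were separate cultures is given in the labels, so p-values measure the spread between these libraries alone. In bulk RNA, fewer cells with a transcript and less of it per cell cannot be told apart.

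Ty elements are copied through an RNA that is packaged into virus-like particles and reverse transcribed, and the new DNA is inserted into the genome. Gag forms the particle, and Gag-Pol, made by a ribosomal frameshift near the end of Gag, adds protease, integrase and reverse transcriptase. Ty1 is the most abundant family in laboratory strains, and its RNA starts in the 5′ long terminal repeat. Its transcription is known to depend on Tec1 and Ste12, the transcription factors of filamentous growth and mating, which bind within and downstream of that repeat, in part inside the reading frame. Ty1, Ty2, Ty3 and Ty4 insert upstream of genes that RNA polymerase III transcribes, and 31 of the 44 Ty genes belong to an element within 750 bp of a tRNA gene.

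The early part of the reading frame is shown because it holds the sequence difference that the copies are later sorted by. Each line gives frame positions 91 to 150, counted from 1 at the A of the start codon, in the direction of the frame. The letters come from the RefSeq R64 genome, the same assembly as the sacCer3 build named in the submitters' processing notes. Capitals mark positions 123 to 128. The first 3 frames carry AGAATG there, the reverse complement of CATTCT, a known binding sequence of Tec1.
YBL005W-B: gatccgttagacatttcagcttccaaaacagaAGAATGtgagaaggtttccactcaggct
YLR227W-B: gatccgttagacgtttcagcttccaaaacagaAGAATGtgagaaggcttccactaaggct
YMR045C: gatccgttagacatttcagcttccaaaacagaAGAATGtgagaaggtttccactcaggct
YNL054W-B: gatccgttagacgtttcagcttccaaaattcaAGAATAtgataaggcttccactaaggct
YGR161C-D: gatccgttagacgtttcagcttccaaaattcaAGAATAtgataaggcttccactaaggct
YNL284C-B: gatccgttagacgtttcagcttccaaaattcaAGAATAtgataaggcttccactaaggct
YLR410W-B: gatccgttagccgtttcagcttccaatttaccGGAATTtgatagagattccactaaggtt
The first 6 are Ty1 and the last is Ty2. They lie at chrII:221420-221479 (plus strand), chrXII:593528-593587 (plus), chrXIII:362478-362537 (minus), chrXIV:519546-519605 (plus), chrVII:822866-822925 (minus), chrXIV:102083-102142 (minus) and chrXII:941573-941632 (plus). Against YBL005W-B, the window of YMR045C has 0 substitutions and that of YLR227W-B has 3, none of them in the hexamer. YNL054W-B, YGR161C-D and YNL284C-B each have 8, of which G128A falls in the hexamer, and YLR410W-B has 15, of which A123G and G128T do.

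The following lines give the 250 bases before and the first 50 bases of the frame for the Ty1 and the Ty2 gene with the highest mean level, at chrII:221080-221379 and chrXII:941233-941532, both on the plus strand of R64. Capitals mark the start codon and matches on either strand to 2 motifs. The core of the known Ste12 binding sequence was searched as TGAAAC. The TATA element was searched as TATAAA.
YBL005W-B: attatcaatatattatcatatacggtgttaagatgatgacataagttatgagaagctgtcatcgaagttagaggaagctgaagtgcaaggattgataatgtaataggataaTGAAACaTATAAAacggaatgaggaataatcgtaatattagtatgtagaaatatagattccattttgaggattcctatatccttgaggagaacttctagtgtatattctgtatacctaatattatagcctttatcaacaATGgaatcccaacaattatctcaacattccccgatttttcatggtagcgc
YLR410W-B: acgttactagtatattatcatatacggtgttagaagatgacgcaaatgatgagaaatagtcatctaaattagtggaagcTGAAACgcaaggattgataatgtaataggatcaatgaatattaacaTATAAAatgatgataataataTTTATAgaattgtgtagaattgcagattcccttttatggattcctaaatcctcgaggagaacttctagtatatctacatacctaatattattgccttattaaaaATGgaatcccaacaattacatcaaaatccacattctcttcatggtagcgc
These 300 bases are 79.3% identical between the 2 genes, and the other 28 Ty1 Gag-Pol frames compared were 82% to 98% identical to YBL005W-B. No other Ty2 gene was compared, and some Ty1 genes, such as YLR227W-B and YNL054W-B, have the reverse-strand match to the TATA element that YLR410W-B has and YBL005W-B does not. TGAAAC and TATAAA each occurred in this window of 31 of 32 Ty1 and 9 of 9 Ty2 genes, against 19.9% and 45.3% of the same window of all genes.

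The Ty genes are near copies of each other, which limits what a count assigned to 1 copy means. Of the 44, 36 have another Ty frame at 99% identity or more, and the median frame shares 98.4% of its 50-base windows with another place in the genome (lowest, 58.8%). For 11 genes every 50-base window is shared. Whether reads that fit several places were dropped, split or assigned is not given in the sources used here, so counts of single copies are uncertain and the family sums are the firmer measure. The strand setting of the counting is not given either, and the Gag frames nested in full elements, 41 in the annotation, are not rows of the table.

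Library totals ranged from 8038470 to 29514490 counts. SET2 stood at 0.343 CPM or 0.413 CPM (counts per 1000000 after TMM scaling) in set2Δ at day 1 and day 4, against 22.4 and 27.4 in WT, and BRE1 at 0 and 0.0341 CPM in bre1Δ, against 74.6 and 122 in WT. All 4 alpha-specific markers were read, with summed levels of 167 to 1758 CPM, and so were all 5 a-specific markers, at 79.5 to 146 CPM, and all 6 haploid-specific markers, at 432 to 541 CPM. No marker of these lists was at 0 in the mean of any group. The alpha-specific sum was highest in set2Δ at day 1 (1606 to 1758 CPM) and lowest in bre1Δ at day 4 (167 to 179 CPM). The high sum was that of MF(ALPHA)1, the alpha pheromone gene, at a mean of 1349 CPM against 280.0 in WT at day 1, while MF(ALPHA)2 (41.5 against 44.8 CPM), STE3 (46.2 against 54.0) and SAG1 (240.0 against 232) were close to WT. The part of these markers in the Ty results was not tested.

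Ty1 RNA was far lower at day 4 than at day 1 in bre1Δ cells. The 32 Ty1 genes summed to 2111, 2125 and 2255 CPM in the bre1Δ libraries of day 1 and to 187, 197 and 196 CPM in those of day 4, an 11.2-fold lower level. In set2Δ the sum went from 1846, 1774 and 1748 CPM to 846, 755 and 681 CPM, a 2.35-fold lower level. In WT it went from 2058, 1747 and 2581 CPM to 1628, 1554 and 1555 CPM, a 1.35-fold lower level. In each strain all libraries of day 4 lay below all those of day 1, and at day 1 the ranges of WT and of each deletion overlapped.

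The Ty2 sum stayed in a narrow range, and it rests on 1 gene that went against the others. The 9 genes summed to 118 to 148 CPM in WT at day 1, 121 to 135 CPM in WT at day 4, 124 to 135 and 111 to 119 CPM in set2Δ, and 120 to 145 and 134 to 147 CPM in bre1Δ at the respective days. In set2Δ the day 4 libraries lay below those of day 1, and in WT and bre1Δ the days overlapped. Without YLR410W-B, left out after its values were seen, the other 8 summed to 63.6, 63.1 and 66.4 CPM in bre1Δ at day 1 and 38.4, 37.2 and 40.1 CPM at day 4. That is 1.67-fold lower, beside 1.30-fold in WT and 1.25-fold in set2Δ, with all day 4 libraries below those of day 1 in each strain. The Ty3 gene ran from 42.9 to 114 CPM over all libraries, and the 2 Ty4 genes summed to 1.65 to 10.6 CPM. Ty1 took 0.224% to 0.24% of all counts in bre1Δ at day 1 and 0.0196% to 0.021% at day 4, while Ty2 took 0.013% to 0.0154% and 0.0143% to 0.0155%.

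**Figure D1:**
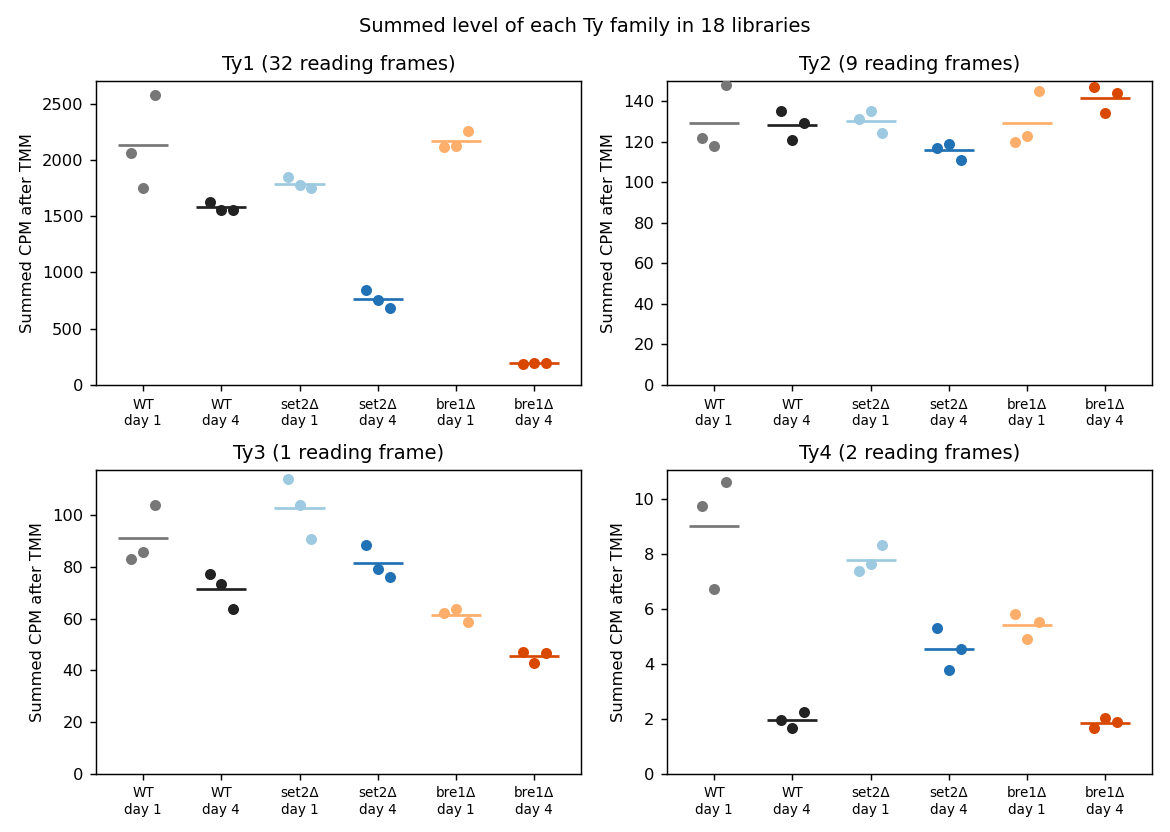
Summed level of the 44 Ty genes by family in CPM after TMM scaling (vertical axes, linear from 0) in the 6 groups. Ty frames outside the criteria, such as YJL113W of Ty4, are not included. Points are libraries and bars are means of 3. Ty1 drops from 2164 to 193 CPM in bre1Δ while the Ty2 sum, which YLR410W-B dominates in bre1Δ at day 4, lies between 111 and 148 CPM in all 18 libraries.

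The genes were compared one by one with edgeR's quasi-likelihood test, with p adjusted by Benjamini-Hochberg over 6320 genes and a threshold of 0.05. It could be run on 40 of the 44 Ty genes. YML045W, YDR316W-B (Ty1), YGR161W-B and YFL002W-A (Ty2) did not pass the filter on low counts. Changes are log2 fold changes ± SE with 3 libraries per group. A large share of all genes was called in every comparison, so each count of Ty genes stands beside the share of all genes called in that direction. Comparisons that share a group of libraries are not independent of each other.

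In bre1Δ, 38 of 40 Ty genes fell from day 1 to day 4 and 1 rose, where 38.4% of all genes fell and 37.9% rose. All 30 tested Ty1 genes fell, with a median change of -2.79 (-2.73 with YER138C, which had no read at day 4, set at its bound), against -0.02 for all genes. Of the 29 with reads at both days, 19 fell at least 4-fold and 25 at least 2-fold. Among the 29, YLR035C-A, YLR157C-B, YPL257W-B, YPR137C-B and YML039W had at most 4 reads in any library of day 4, so the size of their falls is uncertain. In the same strain 5 of 7 Ty2 genes fell, 1 rose, and their median change was -0.69.

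YNL054W-B and YMR045C, both Ty1 Gag-Pol frames, had the smallest p in that comparison. YNL054W-B (chrXIV:519456-524706, plus strand) stood at 346, 322 and 331 CPM in bre1Δ at day 1 and at 17.0, 18.4 and 17.5 CPM at day 4, a change of -4.24 ± 0.07 (edgeR, adjusted p = 4.97e-20). YMR045C (chrXIII:357359-362627, minus strand) stood at 271, 274 and 276 CPM and then at 13.7, 14.8 and 14.2 CPM, a change of -4.26 ± 0.10 (adjusted p = 3.08e-18). The days lay far apart for both, and the replicates of a day lay close together.

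YBL005W-B (chrII:221330-226598, plus strand) had the highest mean level of all Ty genes. Its libraries read 327, 285 and 387 CPM in WT at day 1 and 256, 249 and 244 CPM in WT at day 4. In set2Δ they read 372, 351 and 355 CPM, then 189, 160 and 134 CPM. In bre1Δ they read 428, 431 and 458 CPM, then 23.7, 23.0 and 25.8 CPM, and the changes in the 3 strains were -0.42 ± 0.10, -1.17 ± 0.10 and -4.17 ± 0.11. The day 4 libraries were the lower ones in every strain, and those of bre1Δ were below all others.

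The largest fitted fall among Ty1 genes with reads in all groups, picked out after the values were seen, was that of YLR227W-B (chrXII:593438-598706, plus strand), at -5.15 ± 0.19 in bre1Δ, with 137, 130 and 155 CPM at day 1 and 3.55, 4.34 and 3.98 CPM at day 4. YER138C had 34 reads in the bre1Δ libraries of day 1 and 0 at day 4, at least 3.43-fold lower when 3 counts are assumed in each library, the largest level that a count of 0 allows at 95% confidence for counting error. Every 50-base window of YER138C is shared. The smallest fall in Ty1 was that of YER160C, which also has no window of its own: it stood at 8.44, 9.86 and 9.45 CPM and then at 4.87, 7.19 and 5.77 CPM, a change of -0.65 ± 0.16. These days did not overlap either.

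YLR410W-B, the Ty2 gene with the highest mean level, was the Ty gene that rose in bre1Δ. It stood at 56.4, 60.2 and 78.2 CPM at day 1 and at 109, 96.5 and 104 CPM at day 4 (0.67 ± 0.10, adjusted p = 5.84e-06). It rose in WT as well, from 42.4, 42.4 and 56.6 CPM to 68.7, 61.2 and 65.9 CPM (0.47 ± 0.11), and in set2Δ it stood at 56.5, 56.8 and 50.4 CPM and then at 55.5, 57.3 and 52.6 CPM (0.02 ± 0.11, adjusted p = 0.907). The days were apart in bre1Δ and WT and overlapped in set2Δ. The 5 Ty2 genes that fell in bre1Δ lost less than most Ty1 genes: the largest fall was that of YOR192C-B (-1.25 ± 0.12).

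**Figure D2:**
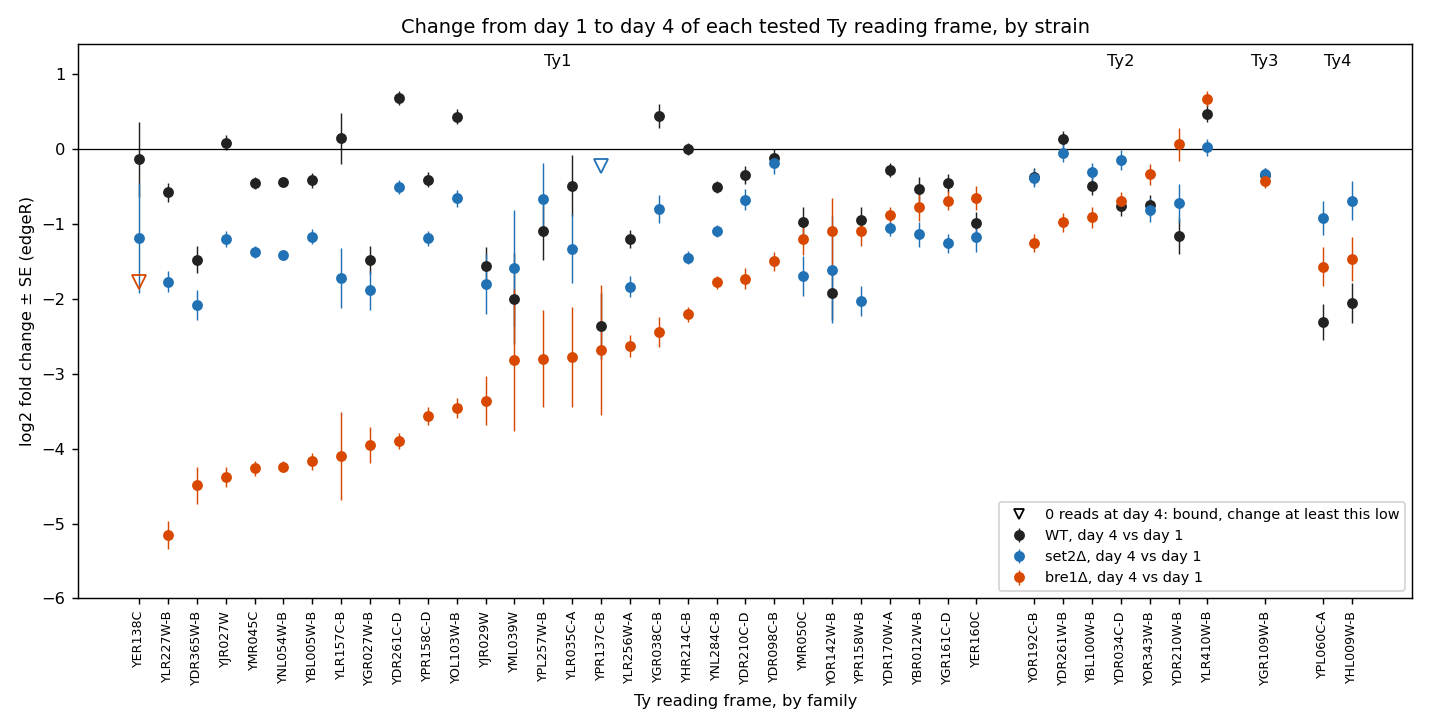
Change from day 1 to day 4 (log2 fold change ± SE, vertical axis) of the 40 tested Ty genes, ordered by family and by their change in bre1Δ; colours give the strain, and open triangles give the bound for a gene with 0 reads at day 4. Most Ty1 genes sit far lower in bre1Δ than in the other strains, down to -5.15, while Ty2 genes range from -1.25 to 0.67 in bre1Δ.

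In set2Δ, 33 of 40 Ty genes fell from day 1 to day 4 and 0 rose, where 37.3% of all genes fell and 34.3% rose. The count of 0 rising genes was the same in DESeq2 and in limma, and no Ty gene in set2Δ was higher at an unadjusted p under 0.05 in edgeR. Of 30 Ty1 genes 26 fell, with a median of -1.29 (-1.23 with YPR137C-B, at 0 reads at day 4, set at its bound). YNL054W-B went from 231, 224 and 215 CPM to 91.5, 84.8 and 76.8 CPM (-1.41 ± 0.06), and YMR045C from 176, 174 and 175 CPM to 72.4, 68.9 and 61.4 CPM (-1.38 ± 0.08). No library of day 4 reached the lowest of day 1 for either gene. Of 7 Ty2 genes 4 fell, with a median of -0.31.

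In WT, 29 of 40 Ty genes fell from day 1 to day 4 and 4 rose, where 40.5% of all genes fell and 37.2% rose. The median change was -0.48 over Ty1 and -0.49 over Ty2. YLR256W-A (chrXII:651117-652439, plus strand), the higher of the 2 Gag frames, went from 75.5, 66.7 and 97.5 CPM to 38.2, 36.7 and 29.4 CPM (-1.20 ± 0.12). It also fell in set2Δ (63.5 and 52.4 CPM in replicates 1 and 3 and less in replicate 2, then 16.9, 16.0 and 13.8 CPM) and in bre1Δ (46.5, 51.2 and 50.6 CPM, then 7.93, 9.59 and 7.07 CPM), with changes of -1.84 ± 0.14 and -2.63 ± 0.15. The other Gag frame, YDR170W-A, which shares the fewest windows of all Ty genes, changed by -0.28 ± 0.09, -1.06 ± 0.10 and -0.88 ± 0.10 in WT, set2Δ and bre1Δ.

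Counts of some Ty1 genes rose in aging WT cells and fell in both deletions. YDR261C-D, YOL103W-B and YGR038C-B share 99.4%, 97.9% and 99.5% of their 50-base windows, so the copy their reads came from is uncertain. Among the 16 Ty genes that share under 90% of their 150-base windows, only the Ty2 gene YLR410W-B was higher at day 4 in WT. YDR261C-D (chrIV:987534-992349, minus strand) rose from 105, 102 and 128 CPM to 176, 176 and 187 CPM in WT (0.68 ± 0.09). It fell in set2Δ from 102, 111 and 109 CPM to 74.9, 77.7 and 73.6 CPM (-0.51 ± 0.09) and in bre1Δ from 128, 123 and 145 CPM to 7.31, 11.4 and 8.31 CPM (-3.90 ± 0.11). The groups of the 2 days were apart in each strain, in opposite order in WT and in the deletions.
YOL103W-B behaved alike: it rose in WT from 57.1, 50.5 and 73.2 CPM to 85.8, 77.3 and 79.4 CPM (0.43 ± 0.10), fell in set2Δ from 45.5, 53.6 and 51.0 CPM to 35.7, 31.2 and 28.8 CPM (-0.66 ± 0.11) and fell in bre1Δ from 51.5, 50.9 and 54.0 CPM to 5.15, 5.02 and 4.37 CPM (-3.46 ± 0.13). YGR038C-B rose in WT too (0.44 ± 0.16) and fell in bre1Δ (-2.45 ± 0.20), but its call in WT was lost without replicate 3 of WT at day 1 (adjusted p = 0.112, edgeR) or at day 4 (0.0769), with upper quartile factors (0.0931) and in limma (0.141).

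The day effect itself differed between strains. The difference between the day effect of bre1Δ and that of WT was past the threshold and negative for 24 of 40 Ty genes and positive for 1, where 36.9% of all genes were negative and 40% positive. It was -4.58 ± 0.14 for YDR261C-D and -3.80 ± 0.09 for YNL054W-B, and 21 of 30 Ty1 genes were negative and 0 positive. The gene with a positive difference was the Ty2 gene YDR210W-B (1.22 ± 0.32), which stood at 2.92, 4.16 and 3.23 CPM and then 1.44, 1.16 and 2.06 CPM in WT, and at 2.35, 2.76 and 2.88 CPM and then 2.51, 2.85 and 2.93 CPM in bre1Δ; its call ended in limma on log2(FPKM + 1), with an adjusted p of 0.196. For set2Δ against WT, 18 were negative and 3 positive, where 37.9% and 34.8% of all genes were. Among the negative ones, YHR214C-B (Ty1) had a difference of -1.45 ± 0.13. The day effects of the 2 deletions were not tested against each other.

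At day 4, Ty1 was lower in both deletions than in WT. The Ty1 sum of bre1Δ was 8.17-fold below that of WT, and 32 of 40 Ty genes were lower and 2 higher, where 41.6% of all genes were lower and 44.8% higher. Of 30 Ty1 genes 28 were lower, with a median of -2.81 (-2.70 with YER138C at its bound of at least 5.26-fold lower). The call of YER160C (-0.35 ± 0.16, edgeR, adjusted p = 0.0499) was lost in 17 of the alternatives run, among them those without any 1 of the WT libraries of day 4. YLR410W-B (0.66 ± 0.10) and YDR210W-B (0.84 ± 0.24), both Ty2, were the 2 higher genes, the second of them not in limma (adjusted p = 0.0862), and YDR261W-B (Ty2) was lower (-1.88 ± 0.12), with 24.4, 22.6 and 21.3 CPM in WT and 4.73, 7.04 and 6.61 CPM in bre1Δ.

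In set2Δ at day 4, the Ty1 sum was 2.08-fold below WT, and 29 of 40 Ty genes were lower and 4 higher, where 44% of all genes were lower and 34.7% higher. YHR214C-B stood at 92.8, 89.2 and 95.8 CPM in WT and 26.9, 23.4 and 26.9 CPM in set2Δ (-1.86 ± 0.09). In bre1Δ it stood at 11.6, 9.66 and 10.5 CPM (-3.13 ± 0.10). WT, set2Δ and bre1Δ did not overlap for this gene, in that falling order. The 4 higher genes were both Ty4 genes and the Ty2 genes YDR034C-D (0.54 ± 0.13) and YBL100W-B (0.53 ± 0.13), of which the latter stood at 10.0, 8.96 and 12.8 CPM in WT and 16.1, 16.4 and 13.5 CPM in set2Δ.

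At day 1, before the fall, the Ty1 sum of each deletion overlapped that of WT in CPM, and the calls of single copies went both ways. The sums of the deletions did not overlap, at 1846, 1774 and 1748 CPM in set2Δ and 2111, 2125 and 2255 CPM in bre1Δ. As a share of all counts, without TMM scaling, Ty1 took 0.156% to 0.222% in WT and 0.224% to 0.24% in bre1Δ, without overlap. In set2Δ against WT, 14 of 40 Ty genes were lower and 5 higher, where 39.5% of all genes were lower and 37.9% higher. With library size as the scaling, which moves the median of all genes to 0.35, 7 were lower and 17 higher, so the direction of small differences at day 1 rests on the scaling. In bre1Δ against WT, 18 were lower and 6 higher, where 35.8% of all genes were lower and 35.8% higher; with library size as the scaling 11 were lower and 10 higher, and limma on log2(FPKM + 1) gave 7 lower and 9 higher.

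The largest differences at day 1 were in copies without any 50-base window of their own. In set2Δ, YGR027W-B (chrVII:536057-541325, plus strand) stood at 41.8, 47.8 and 40.9 CPM, against 291, 210 and 425 CPM in WT (-2.82 ± 0.20, adjusted p = 6.31e-11), and at 142, 172 and 175 CPM in bre1Δ. YJR029W stood at 8.26, 9.10 and 6.66 CPM in set2Δ, against 38.5, 23.2 and 60.0 CPM in WT (-2.33 ± 0.27) and 19.9, 24.5 and 24.1 CPM in bre1Δ. In both cases set2Δ lay below WT and bre1Δ in every library, and the WT libraries spread widely, with replicate 3 the highest. YOR142W-B (-2.55 ± 0.39) and YPR137C-B (-3.96 ± 0.55) were also at least 4-fold lower in set2Δ, and these 4 genes are all among the 11 whose 50-base windows are all shared, so the copy their reads came from is uncertain.

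Copies with more sequence of their own differed less at day 1. YNL054W-B stood at 205, 185 and 219 CPM in WT and was higher in bre1Δ, at 346, 322 and 331 CPM (0.71 ± 0.06). YMR045C was higher in bre1Δ as well (0.68 ± 0.08), with 172, 142 and 198 CPM in WT. YNL284C-B was higher in set2Δ, with 64.3, 60.4 and 66.6 CPM against 49.3, 42.2 and 48.7 CPM in WT (0.45 ± 0.08). In these 3 the groups did not overlap.
YJR027W had 159, 160 and 146 CPM in set2Δ and 113, 102 and 155 CPM in WT (0.33 ± 0.10), and without replicate 2 of WT its adjusted p was 0.0552. YHR214C-B (-0.92 ± 0.09, with 47.2, 47.4 and 51.8 CPM against 90.2, 80.8 and 107 CPM in WT) and YDR261W-B (-0.78 ± 0.12, with 11.6 to 12.8 CPM against 19.4, 19.8 and 23.4 CPM) had the smallest p among those lower in bre1Δ.

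**Figure D3:**
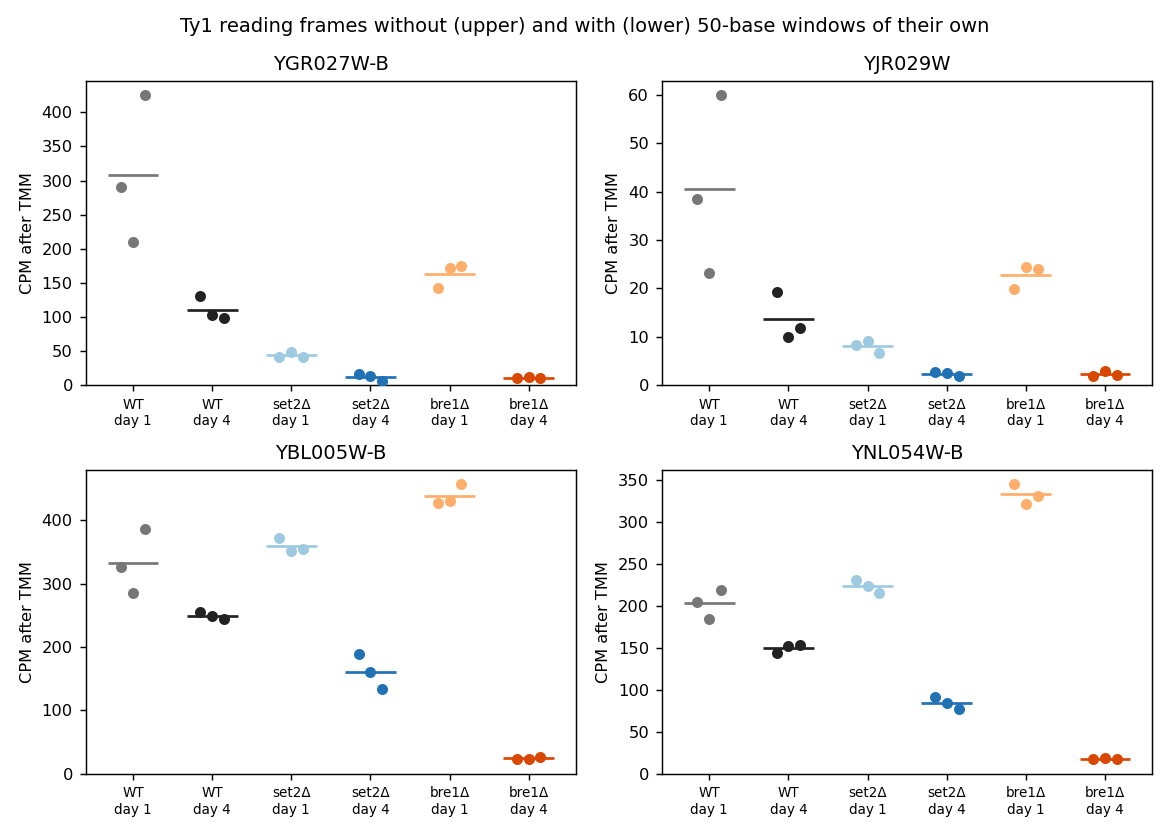
Level of 4 Ty1 genes in CPM after TMM scaling (vertical axes, linear from 0) in the 6 groups; points are libraries and bars are means of 3. YGR027W-B and YJR029W, with every 50-base window shared, are low in set2Δ at day 1, whereas YBL005W-B and YNL054W-B are not, and all 4 are low in bre1Δ at day 4.

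The loci listed by name that are left covered a wide range of levels. YJR027W fell in bre1Δ from 150, 139 and 164 CPM to 7.10, 6.44 and 7.75 CPM (-4.38 ± 0.13) and in set2Δ from its day 1 level to 72.4, 66.8 and 64.2 CPM (-1.20 ± 0.11), while in WT at day 4 it stood at 132, 127 and 132 CPM (0.08 ± 0.10, adjusted p = 0.461). Without replicate 3 of WT at day 1, YJR027W was higher at day 4 in WT (0.28, adjusted p = 0.00145, edgeR). Next to it on chromosome X, YJR029W fell in all 3 strains (-1.56 ± 0.25 in WT, -1.80 ± 0.40 in set2Δ and -3.36 ± 0.33 in bre1Δ), to 19.3, 9.90 and 11.9 CPM, 2.65, 2.50 and 1.88 CPM, and 1.88, 2.92 and 2.05 CPM. The pair lies in tandem.
YMR050C, with no window of its own, stood at 8.02, 6.45 and 10.1 CPM in WT at day 1 and at 2.44, 2.47 and 2.48 CPM in bre1Δ at day 4, and it fell in WT (-0.97 ± 0.20), set2Δ (-1.70 ± 0.27) and bre1Δ (-1.20 ± 0.22). YML039W had means of 0.0608 to 0.925 CPM, and its fall in bre1Δ (-2.82 ± 0.95, adjusted p = 0.011) was lost without replicate 3 of bre1Δ at day 1 (adjusted p = 0.0511, edgeR) or day 4 (0.073) and in limma (0.62). YML045W had 55 reads in all 18 libraries and was not tested.

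Ty3 changed little between the days and was lower in bre1Δ than in WT at both. The Ty3 gene YGR109W-B (chrVII:707610-712254, plus strand) stood at 83.2, 85.9 and 104 CPM in WT, 114, 104 and 90.7 CPM in set2Δ and 62.3, 63.6 and 58.7 CPM in bre1Δ at day 1. At day 4 it stood at 77.1, 73.4 and 63.7 CPM, 88.5, 79.3 and 76.1 CPM, and 47.2, 42.9 and 46.6 CPM. It was lower in bre1Δ than in WT at day 1 (-0.57 ± 0.09) and day 4 (-0.64 ± 0.09), and its day effects were close in size: -0.35 ± 0.09 in WT, -0.34 ± 0.09 in set2Δ and -0.43 ± 0.09 in bre1Δ. Ty3 is known to be induced by mating pheromone.

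The 2 Ty4 genes, YPL060C-A and YHL009W-B, are 99.96% identical and had few reads. Their sum was 4.63-fold lower at day 4 than at day 1 in WT, 1.71-fold in set2Δ and 2.91-fold in bre1Δ, beside 1.35-fold, 2.35-fold and 11.2-fold for Ty1. A further Ty4 element, with the frames YJL113W and YJL114W, falls outside the criteria and is not in this sum. YJL113W had 11519 reads, against 812 for YPL060C-A and 751 for YHL009W-B. Its mean went from 57.9 to 18.9 CPM in WT, from 52 to 38.2 CPM in set2Δ and from 42.4 to 13 CPM in bre1Δ. YPL060C-A fell in WT from 5.02, 3.95 and 5.12 CPM to 1.04, 0.758 and 1.01 CPM (-2.31 ± 0.24). In set2Δ it stood at 3.99, 3.65 and 5.01 CPM and then at 2.41, 1.83 and 2.51 CPM (-0.92 ± 0.23). In bre1Δ it stood at 3.40, 2.07 and 3.05 CPM and then at 0.974, 0.674 and 1.04 CPM (-1.57 ± 0.26). All 3 strains fell, without overlap of the days, and set2Δ at day 4 lay above WT at day 4 (1.24 ± 0.28).
YHL009W-B gave 4.70, 2.76 and 5.45 CPM and then 0.894, 0.892 and 1.23 CPM in WT, and 3.37, 3.98 and 3.30 CPM and then 2.89, 1.95 and 2.02 CPM in set2Δ. It was higher in set2Δ at day 4 than in WT (1.12 ± 0.31), a call that limma on log2(FPKM + 1) did not make (adjusted p = 0.101). The set2Δ day effect exceeded that of WT by 1.39 ± 0.34 for YPL060C-A and by 1.37 ± 0.38 for YHL009W-B, and in limma on log2(FPKM + 1) these 2 calls ended, with adjusted p of 0.186 and 0.329. The differences there were 0.33 and 0.26. Adding 1 to so low an FPKM shrinks any log2 change, so limma cannot decide these calls.

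Within Ty1, the fall in bre1Δ varied with the hexamer at frame positions 123 to 128. AGAATG stands there in 17 Ty1 genes and not in 14, with the truncated YLR035C-A left aside, and at these positions in 0 of 9 Ty2 genes. Elsewhere in the first 150 bases of the frame, CATTCT occurs on either strand in 5 of the 9 Ty2 genes, YLR410W-B among them. CATTCC, which differs from CATTCT in its last base, was also searched on either strand. In the window around the start codon shown above, it occurs in 20 of 32 Ty1 genes, 1 of 9 Ty2 genes and 10.9% of all genes. Genes with AGAATG (YBL005W-B, YMR045C) and without it (YGR161C-D, YNL284C-B, YER160C) have CATTCC there, and YNL054W-B does not. The set without AGAATG therefore does not lack similar sequences nearby. From day 1 to day 4 in bre1Δ, the 16 genes with the hexamer and a value (YER138C left out) had changes of -5.15 to -0.88 with a median of -3.73, and 15 of them fell at least 4-fold. Among these, YLR157C-B, YPL257W-B, YPR137C-B and YML039W had at most 4 reads in any bre1Δ library of day 4, so the size of their falls is uncertain. The 12 tested genes without the hexamer had changes of -4.24 to -0.65 with a median of -1.35, and 3 fell at least 4-fold. In WT the medians of the same sets were -0.52 and -0.48, and in bre1Δ against WT at day 1 they were -0.24 and -0.41.

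The ranges of the sets overlap. YNL054W-B, with AGAATA in place of AGAATG, fell as far as the genes with the hexamer, whereas YGR161C-D and YNL284C-B, whose 60 bases shown above are the same as those of YNL054W-B, fell by -0.69 ± 0.13 and -1.78 ± 0.09. YNL284C-B went from 54.5, 49.0 and 49.2 CPM to 14.8, 13.9 and 15.4 CPM. Among the genes with the hexamer, YDR170W-A fell least. CATTCT on either strand occurs in the first 150 bases of 10.2% of all genes. The position was picked after the changes were seen and the copies share most of their sequence, so this is a description with no test, and a match is not evidence that Tec1 binds.

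**Figure D4:**
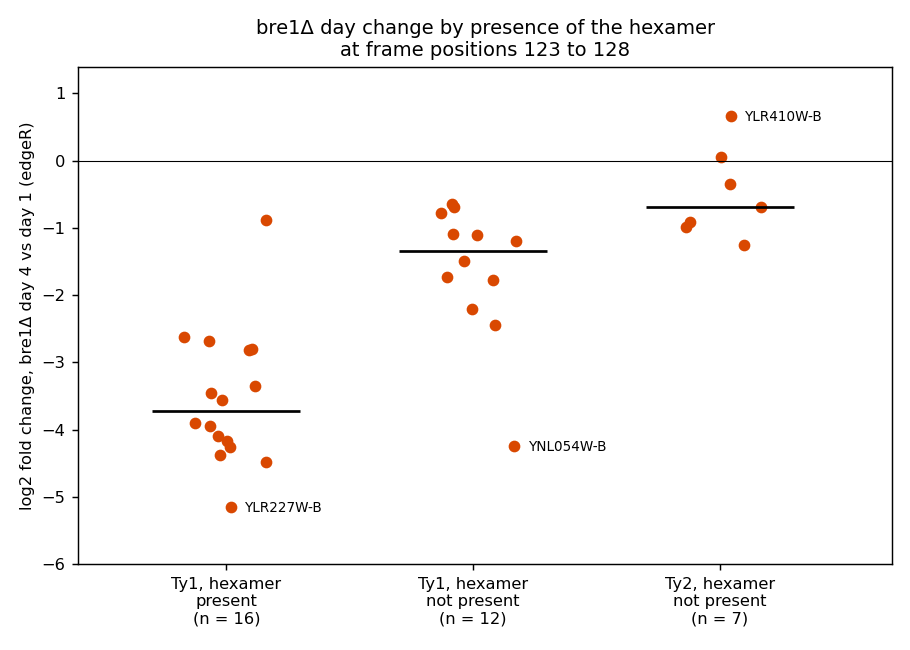
Change from day 1 to day 4 in bre1Δ (log2 fold change, vertical axis) of Ty1 genes with and without the hexamer at frame positions 123 to 128 and of Ty2 genes; points are genes and bars are medians. The medians are -3.73, -1.35 and -0.69, and YNL054W-B lies among the strongest falls without carrying the hexamer.

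In bre1Δ, the RNA of both STE12 and TEC1 moved against Ty1 across the days. STE12 stood at 27.9, 31.7 and 28.2 CPM in bre1Δ at day 1 and at 82.0, 84.5 and 85.6 CPM at day 4 (1.52 ± 0.06, adjusted p = 1.83e-14), the highest of the 6 groups in the group with the least Ty1. TEC1, named here after its values were seen, stood at 50.9, 52.6 and 45.2 CPM and then at 125, 125 and 123 CPM (1.32 ± 0.08). Both rose while the Ty1 sum fell, without overlap of the days. At day 1 both had stood below WT, with means of 29.3 against 48 CPM for STE12 and 49.6 against 144 CPM for TEC1. At day 4 TEC1 stood near WT (124 against 129 CPM) and STE12 above it (84 against 35.9 CPM). In WT, where Ty1 was lower at day 4, STE12 fell (-0.42 ± 0.06), and TEC1 had a change of -0.15 ± 0.08 (adjusted p = 0.0725). In set2Δ, TEC1 fell from 135, 134 and 113 CPM to 94.4, 82.5 and 81.5 CPM (-0.57 ± 0.08), and STE12 stood at 66.1 ± 2.55 and 66.4 ± 2.65 CPM (SD, n = 3).

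**Figure D5:**
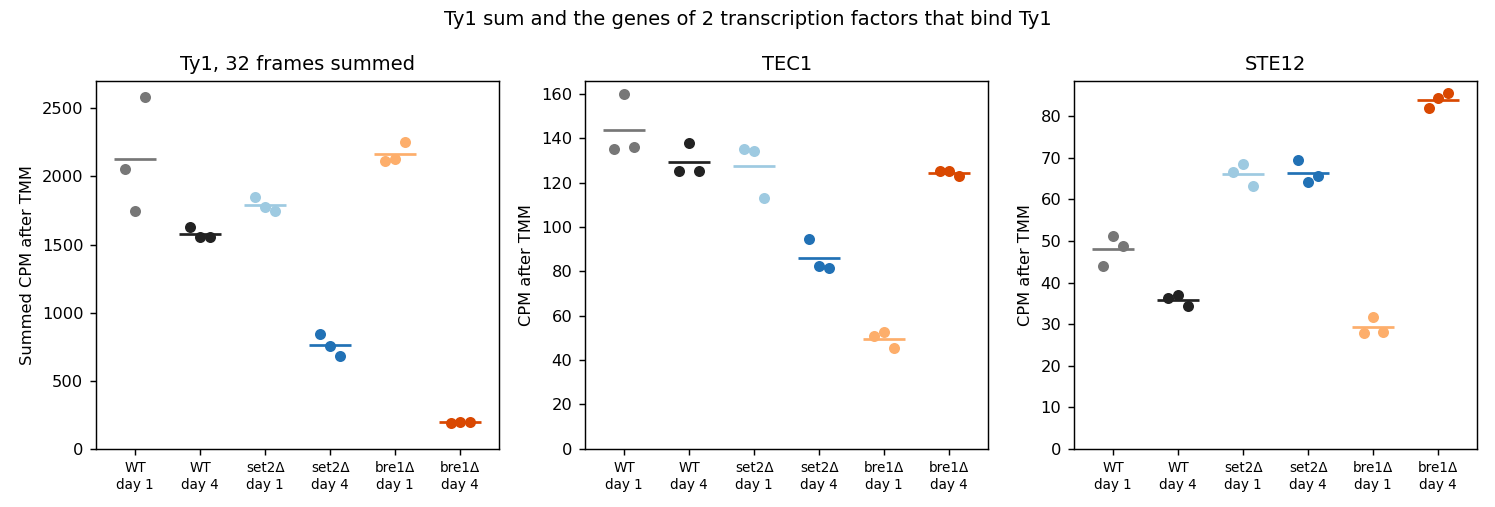
Summed Ty1 level, TEC1 and STE12 in CPM after TMM scaling (vertical axes, linear from 0) in the 6 groups; points are libraries and bars are means of 3. In bre1Δ, TEC1 goes from 49.6 to 124 CPM and STE12 from 29.3 to 84.0 CPM between the days at which Ty1 goes from 2164 to 193 CPM.

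Of 12 transcription factors tied to Ty1, 9 rose and 2 fell in bre1Δ from day 1 to day 4, with a median change of 0.50. In WT 7 of the 12 rose and 3 fell, with the same median of 0.50, where 37.2% of all genes rose and 40.5% fell. In set2Δ 5 rose and 3 fell, with a median of 0.08, where 34.3% rose and 37.3% fell. Within bre1Δ, ROX1, a repressor of hypoxic genes, rose (0.50 ± 0.07), and SWI5, a factor of late mitosis, fell (-1.49 ± 0.11). Of 10 genes of the pheromone and filamentous growth kinase cascade, which feeds into Ste12 and Tec1, 4 rose and 5 fell: KSS1, the filamentation kinase, rose (0.88 ± 0.06), STE4, the beta subunit of the pheromone G protein, rose (0.92 ± 0.06), and STE7, their shared kinase kinase, fell (-0.15 ± 0.06). The call of STE7 was lost without replicate 1 or 2 of bre1Δ at day 1 or at day 4, with an adjusted p of 0.0629 to 0.178 in edgeR. The counts in bre1Δ stand beside the same background of 37.9% rising and 38.4% falling.

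Coactivators and chromatin genes of Ty1 transcription were mixed in that comparison, where 37.9% of all genes rose and 38.4% fell. Of 14 SAGA and SWI/SNF genes 7 rose and 5 fell: SWI1, a SWI/SNF subunit, rose (1.55 ± 0.07), SPT7, a SAGA scaffold, fell (-0.30 ± 0.05), and SNF5 had a change of -0.16 ± 0.08 (adjusted p = 0.0735). Of 13 SPT and HIR genes 3 rose and 8 fell, with HIR3, of the histone repressor complex, at -0.50 ± 0.05, SPT2 at -0.18 ± 0.06 (adjusted p = 0.0547 without replicate 2 of bre1Δ at day 1) and SPT15, the TATA-binding protein, at -0.14 ± 0.07 (adjusted p = 0.0655). At day 4 SPT15 stood at 70.2 ± 1.39 CPM in bre1Δ and 439 ± 18.8 CPM in WT (-2.64 ± 0.07), and in WT it had risen from 75.3 ± 8.30 CPM at day 1.

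Most genes that restrict Ty1 transposition fell in bre1Δ across the days, while the cofactors and targeting genes were mixed. Of all genes, 37.9% rose and 38.4% fell there. Of 12 RTT and related restriction genes 1 rose and 9 fell, with a median of -0.46 against -0.02 for all genes: RTT10 rose (1.05 ± 0.07), while SGS1, a DNA helicase, and RTT106, a histone chaperone, fell (-0.94 ± 0.05 and -0.34 ± 0.04). Of 11 RNA decay and cofactor genes 4 rose and 4 fell: DBR1, the RNA debranching enzyme that Ty1 needs, fell (-1.02 ± 0.06), UPF3 of nonsense-mediated decay fell (-0.64 ± 0.07), and NMD2 had a change of 0.01 ± 0.05 (adjusted p = 0.809). Of 7 genes of integration targeting 2 rose and 4 fell: RPC40, the polymerase subunit that Ty1 integrase binds, rose (0.49 ± 0.06), BDF1 rose (1.47 ± 0.07), and ISW2, a chromatin remodeller, had a change of 0.06 ± 0.04 (adjusted p = 0.254).

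Across the 18 libraries, the genes whose log2 level was most like that of the Ty1 sum were CWC23 (Pearson's r = 0.984), GAD1 (0.979), PRM1 (0.977), PRD1 (0.962) and YPT53 (0.953). These are correlations over 6 groups of 3 libraries that share scaling, and they are given as a description. GAD1, glutamate decarboxylase, stood at 1404 ± 62.1 CPM in bre1Δ at day 1 and 324 ± 16.7 CPM at day 4, and PRM1, a membrane protein of mating cell fusion, at 31.8 ± 1.55 and 10.7 ± 0.871 CPM (SD, n = 3). Their falls were smaller than that of the Ty1 sum.

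The 4 rows that are not Ty genes differed between the strains in both directions. MEI4, a meiotic recombination gene, was lower in set2Δ than in WT at day 1 (-2.62 ± 0.31, at 0.695 against 4.37 CPM) and higher in bre1Δ (1.00 ± 0.22). NVJ3 was higher in bre1Δ at both days (0.96 ± 0.09 and 1.03 ± 0.09), LSB3 was lower in set2Δ at day 1 (-0.63 ± 0.05), and FCY22, a purine-cytosine permease, was higher in set2Δ at day 1 (0.74 ± 0.06). In bre1Δ all 4 fell from day 1 to day 4, with changes of -0.62 to -0.35. MEI4, at a length of 1315.9 bp in the table, and the 2 Gag frames, at 1323.9 bp, were the rows nearest above the limit of 1200 bp, and YMR173W-A (1185.8 bp) and YBR084C-A (1076.7 bp) were the nearest below it. A further 5 annotated Ty frames in the table, YAR009C, YAR010C, YCL019W, YJL113W and YJL114W, fall outside the criteria by name.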

How the data were processed

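The libraries are of polyadenylated RNA, 18 in all, in 6 groups of 3. The authors deposited a table of raw read counts per gene and of FPKM values, which they had computed from those counts. Per the submitters' processing notes, FastQC 0.11.8, cutadapt 2.6, STAR 2.7.0b, HTSeq 2.0.2, R 4.2.0 and DESeq2 1.36.0 were used with sacCer3. How reads that fit several places were treated, the strand setting and the annotation release are not given in the sources used here.

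From the deposited counts, edgeR 4.0.16 (R 4.3.3) was run with TMM scaling and its default filter on low counts, which left 6320 of 6837 genes, in 1 quasi-likelihood model of the 6 groups without a replicate term. P-values were adjusted by Benjamini-Hochberg with a threshold of 0.05. CPM values are counts per 1000000 after TMM scaling. Totals of 8038470 to 29514490 counts limit genes of few reads: a library with 0 counts allows up to 3. DESeq2 1.42.0, limma 3.58.1 on log2(FPKM + 1), other scalings, no filter, a replicate term and leaving out each library were alternatives. In limma the added 1 shrinks the log2 changes of genes of few reads: the day change of YML039W in WT was -2.00 in edgeR and -0.15 there. For such a gene, a call that ended in limma is only weakly tested by it. Frames were compared with edlib 1.3.9.post1. Scripts were tested on simulated data.

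The members and all lists were chosen with earlier results of these data known. Genes named were the loci listed one by one, the gene with the highest mean level in each family and frame kind, in each comparison the 2 Ty genes with the smallest adjusted p in each direction, 3 genes per regulator list with the smallest adjusted p in any comparison and the 5 genes most like Ty1. Others were named after their values were seen. Replicate numbers paired the libraries in 2 of 15 pairs of groups, with correlations above 0.1 for every number.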

Additional observations from a re-analysis of the deposited data

Results flagged for a closer look

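The day effect of set2Δ differed from that of WT, by the test of the difference in edgeR, for 21 of 40 Ty genes, 3 with a higher and 18 with a lower effect. Of all genes, 34.8% had a higher and 37.9% a lower effect. The Ty genes with the smallest adjusted p were both Ty4 genes, YPL060C-A (1.39) and YHL009W-B (1.37), on the higher side and the Ty1 genes YHR214C-B (-1.45) and YNL054W-B (-0.97) on the lower side, as log2 differences. Both Ty4 calls ended in limma on log2(FPKM + 1), with adjusted p of 0.186 and 0.329.

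The day effect of bre1Δ differed from that of WT for 1 of 40 Ty genes with a higher effect, the Ty2 gene YDR210W-B (1.22), and for 24 with a lower one, among them YNL054W-B (-3.80) and YDR261C-D (-4.58). Of all genes, 40% had a higher and 36.9% a lower effect. The call of YDR210W-B ended in limma on log2(FPKM + 1), with an adjusted p of 0.196. These tests share the WT libraries, and the deletions were not tested against each other.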

How the results depend on the processing

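Of the counts of Ty genes called, 521 values under alternatives stayed within 1.5 times the reported count and 37 did not. Counts from sets of another size were compared as they stand with those of the 40 tested genes. A smaller set can therefore move by its size alone, as with 13 of 16 genes lower in set2Δ across the days, beside 33 of 40. Alternatives by which members enter were chosen after seeing the data. With the 16 genes that share under 90% of their 150-base windows, the counts higher and lower were 1 and 13 in WT across the days, 13 lower in set2Δ and 14 lower in bre1Δ across the days, 3 and 3 for set2Δ and 4 lower for bre1Δ against WT at day 1, 2 and 9 for set2Δ and 12 lower for bre1Δ at day 4, and 1 and 8 (set2Δ) and 10 lower (bre1Δ) for the difference in day effect. With all 48 rows, 1 was higher in set2Δ across the days and 4 in bre1Δ against WT at day 4. limma on FPKM gave 14 higher and 6 lower for set2Δ and 7 lower for bre1Δ against WT at day 1, 18 lower for set2Δ at day 4, and 0 higher for both differences in day effect. Library size as the scaling gave 17 and 7 for set2Δ and 10 and 11 for bre1Δ at day 1, and 4 higher for bre1Δ at day 4. Upper quartile factors gave 10 higher for set2Δ at day 1 and 3 higher for the bre1Δ difference in day effect. With the replicate block that difference had 2 higher, and the block moved no other count by over 1.5 times. Leaving out 1 library, the higher count ran from 1 (without WT day 1 replicate 2) to 11 (without WT day 1 replicate 3) for set2Δ against WT at day 1, and from 1 to 5 for the bre1Δ difference in day effect.

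Signs turned for set2Δ against WT at day 1 with library size as the scaling in YDR034C-D (0.29), YDR261C-D (0.31), YDR261W-B (0.05), YLR227W-B (0.32), YOL103W-B (0.10) and YPR158C-D (0.06), and in limma for YDR261C-D (0.30), YDR261W-B (0.04), YLR227W-B (0.34), YOL103W-B (0.10) and YPR158C-D (0.07). YLR410W-B turned to 0.01 in both for set2Δ against WT at day 4, and YGR161C-D to 0.01 in limma for bre1Δ against WT at day 1. The median of all genes also moved under these settings. For set2Δ against WT at day 1 it was -0.01 in the main fit, 0.35 with library size as the scaling and 0.34 in limma. At day 4 the medians were -0.10, 0.16 and 0.15 in that order, and for bre1Δ against WT at day 1 limma gave 0.30, beside 0.02 in the main fit. The cause of the turned signs was not tested. Every Ty gene shares at least 58.8% of its 50-base windows, so the alternative of keeping those that share less than they keep for themselves gave no value. Genes of few reads, such as YML039W and YER138C, are limited by depth.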
